A study of Mus musculus with 12 samples.

Results

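The granins and the enzymes that process prohormones were followed in mouse hypothalamus as a set of 10 genes. The set held the granins *Vgf*, *Chga*, *Chgb*, *Scg2* and *Scg3*, the convertases *Pcsk1* and *Pcsk2*, their partner proteins *Scg5* and *Pcsk1n*, and carboxypeptidase E (*Cpe*). Members were chosen by function and matched by gene symbol, and all 10 were found among the 16855 genes listed for chow-fed mice and the 16744 genes listed for mice on a high-fat diet (HFD). The study asked how loss of GPR75, a G protein–coupled receptor, acts on the central control of feeding. RNA-Seq was done on the hypothalamus of 12 male C57BL/6J mice, 3 in each of 4 groups. The groups were WT mice on chow, *Gpr75-/-* mice on chow, WT mice on the HFD and *Gpr75-/-* mice on the HFD. All mice were 8 weeks old, and the HFD had been given for 2 weeks, from 6 weeks of age. The *Gpr75-/-* mice carry a germline null allele made with CRISPR/Cas9 in which the reading frame is lost near the start of the protein.

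Granins are acidic proteins of the regulated secretory pathway that aggregate with peptide hormones and help to form dense-core vesicles, and several of them are themselves cut into active peptides. Inside these vesicles the prohormone convertases PC1/3 and PC2 cleave precursors after pairs of basic residues, and carboxypeptidase E trims the basic residues that remain. The hypothalamus depends on this route for its feeding peptides, among them the products of *Pomc*, *Npy* and *Pmch*.

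The values were the authors' levels of each group, given here as CPM, a gene's counts scaled to a common library total, and the mean normalized count over the 6 mice of a diet. No values of single mice were used, so no difference below has a replicate error or a test. The group levels were rounded by the authors to 2 decimals on a compressed log scale. Each difference is therefore given with the lowest and highest value that rounding allows, an interval that says nothing of the variation between mice. The mean normalized counts summed to 18280462 on chow and 19420111 on the HFD, and each member had a mean of at least 1480 on chow and 1771 on the HFD.

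The targeted gene, *Gpr75*, stood at 16.7 CPM in WT and 24.6 CPM in *Gpr75-/-* mice on chow. On the HFD it stood at 19.9 CPM in WT and 18.4 CPM in *Gpr75-/-* mice. The transcript was thus present in all 4 groups. Because the allele ends translation early and need not remove the mRNA, this level does not check the genotype labels.

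The tissue label was set against marker genes. Of 13 hypothalamic markers, 12 were measured on each diet, and *Pmch*, which encodes melanin-concentrating hormone, was the most abundant of them. *Rax* was sought and was not among the genes listed for either diet. Of 10 pituitary markers, 3 were measured on each diet. *Tshb*, which encodes the beta subunit of thyrotropin, was between 1.53 CPM and 2.06 CPM in the 4 groups. The pituitary hormone genes *Gh* and *Prl* were sought and were not among the genes listed for either diet, so no level is given for them.

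Per kilobase of the longest transcript, *Cpe* had the highest level of the set, at 1277 CPM per kilobase on chow and 1321 CPM per kilobase on the HFD. It was 14th among 13825 protein-coding genes in level per kilobase on chow and 13th among 13796 on the HFD. *Scg2*, which encodes secretogranin II, followed at 460.2 and 479 CPM per kilobase. *Cpe* thus exceeded *Scg2* per kilobase by 2.77-fold on chow and 2.76-fold on the HFD.

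The middle of the order was filled by partner proteins and granins. On chow, the level per kilobase was 179 CPM for *Scg5*, 155 CPM for *Pcsk1n*, 116 CPM for *Chgb*, 108 CPM for *Chga*, 96.8 CPM for *Vgf* and 84.2 CPM for *Scg3*. Per kilobase the convertases came last, with 45.0 CPM per kilobase for *Pcsk2* and 16.1 CPM per kilobase for *Pcsk1*. This order depends on the lengths used, 4723 bases for *Pcsk2* and 5040 bases for *Pcsk1*. Which transcript was expressed was not analysed. By mean count on chow, not scaled by length, *Pcsk2* was 7th at 212 CPM, above *Chga* at 204 CPM and *Scg3* at 201 CPM. On that scale *Cpe* had 2703 CPM and *Pcsk1* 80.9 CPM. The order of the 10 genes per kilobase was the same on the HFD, where *Pcsk2* had 42.5 CPM and *Pcsk1* 18.1 CPM per kilobase. The carboxypeptidase transcript exceeded that of *Pcsk1* per kilobase by 79.5-fold on chow and 73.0-fold on the HFD, and *Pcsk2* exceeded *Pcsk1* by 2.80-fold and 2.35-fold.

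**Figure D1:**
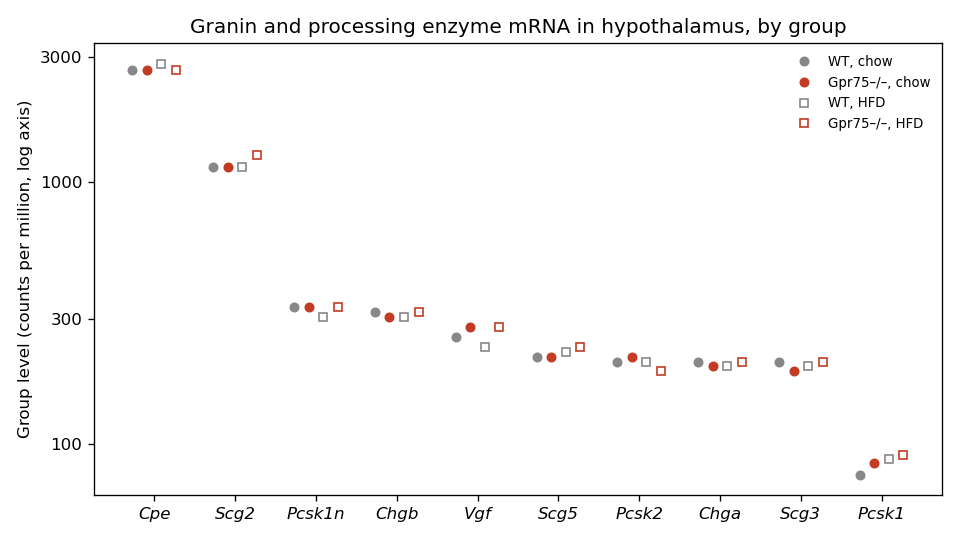
Group levels of the 10 genes in CPM, on a log axis, for WT (gray) and Gpr75–/– (red) mice on chow (filled circles) and on the HFD (open squares). Each symbol is the authors' level of 1 group, with no value of single mice, and genes are ordered by mean normalized count on chow. WT levels on chow run from 2666 CPM for *Cpe* to 76.6 CPM for *Pcsk1*.

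The group levels of the 10 genes summed to 5631 CPM in WT and 5633 CPM in *Gpr75-/-* mice on chow. On the HFD the sum was 5736 CPM in WT and 5802 CPM in *Gpr75-/-* mice. *Cpe* alone supplied 47.4% of the summed mean normalized counts of the set on chow and 48.0% on the HFD. Without *Cpe*, the sum was 2965 CPM in WT and 2967 CPM in *Gpr75-/-* mice on chow, and 2906 CPM and 3136 CPM on the HFD. Over the whole set, the ratio of *Gpr75-/-* to WT was 1.0 on chow (0.949 to 1.055 by rounding). On the HFD it was 1.012 (0.959 to 1.067 by rounding), so rounding allows no difference of the full sum on either diet. Without *Cpe*, the ratio was 1.0 on chow (0.955 to 1.05 by rounding) and 1.08 on the HFD (1.03 to 1.13 by rounding). Among the genes left, *Scg2* had the largest HFD difference in CPM, at 1142 CPM in WT and 1273 CPM in *Gpr75-/-* mice.

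None of the 10 genes differed between the genotypes by 1.2-fold or more on chow. Among the 12413 genes with a mean normalized count of at least 100 on chow, 2.13% were higher in *Gpr75-/-* mice by that fold and 2.23% were lower. A count of 0 among 10 genes is close to these shares and is not a result about the set. At 1.1-fold, 1 gene of the set, *Pcsk1*, was higher on chow and 0 were lower, beside 10.1% and 10.7% of all such genes and 5.49% and 7.71% of the genes with a mean of at least 1000, the range in which all 10 lie. By 1 rounding step or more, 3 of the 10 were higher on chow, 3 were lower and 4 had the same value, beside 42.6% higher and 39.3% lower among all such genes and 39.8% and 34.6% of those with a mean of at least 1000. Rounding does not settle the counts at 1.1-fold. It allows folds of 1.07 to 1.15 for *Pcsk1* and 1.04 to 1.14 for *Vgf*, and on the lower side 0.883 to 0.959 for *Scg3*. The median log2 difference of the set on chow was 0.00, the same as over all genes.

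On the HFD, too, 0 of the 10 genes passed 1.2-fold. There, 1.39% of the 12509 genes with a mean of at least 100 were higher by that fold and 1.44% were lower. At 1.1-fold, 2 of the set were higher, *Vgf* and *Scg2*, and 0 were lower, beside 9.31% and 7.57% of all such genes and 3.88% and 5.72% of those with a mean of at least 1000. By 1 rounding step or more, 8 of the 10 were higher in *Gpr75-/-* mice and 2 were lower, *Pcsk2* and *Cpe*, beside 45% higher and 33.6% lower among all such genes and 36.3% and 31.0% of those with a mean of at least 1000. The median log2 difference of the set was 0.06, and that of all genes was 0.00. Of the 8 higher genes, *Chga*, *Chgb*, *Scg3*, *Scg5* and *Pcsk1* were apart by 1 rounding step, so the true difference of their levels may be close to 0. Rounding does not settle the counts past a fold either. For *Vgf* it allows 1.14 to 1.24, which spans 1.2-fold. For *Scg2* it allows 1.06 to 1.18 and for *Pcsk1n* 1.05 to 1.14, which span 1.1-fold. On the lower side, the ranges of *Pcsk2* (0.883 to 0.959) and *Cpe* (0.887 to 1.0) span 1.1-fold.

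**Figure D2:**
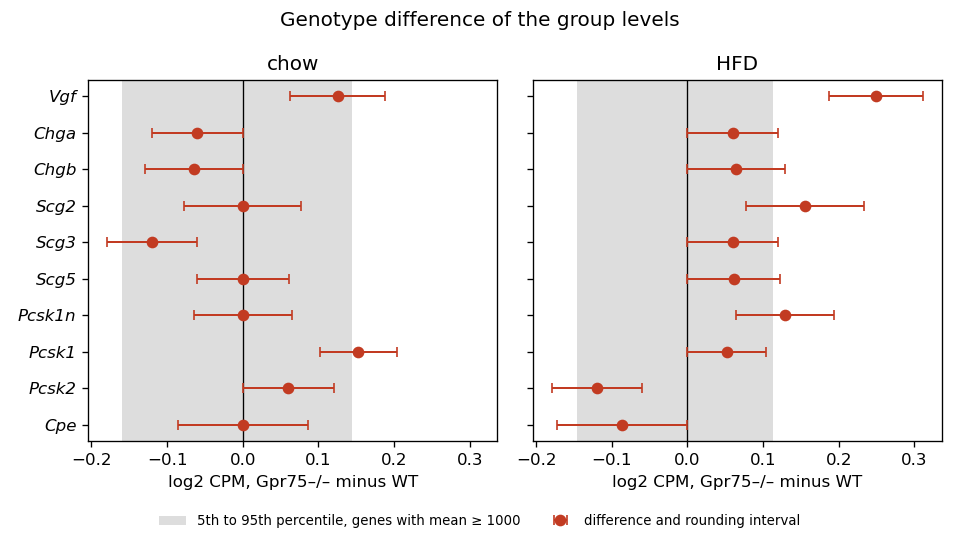
Difference of the group levels, Gpr75–/– minus WT, in log2 CPM for each gene on chow (left) and on the HFD (right). Points are the differences, and bars are the range that rounding of the levels allows (not an error over mice). The gray band spans the 5th to 95th percentile of genes with a mean normalized count of at least 1000. The points of *Pcsk1* on chow, at 0.15, and *Vgf*, *Scg2* and *Pcsk1n* on the HFD, at 0.25, 0.16 and 0.13, lie above the band. Of these, only the bar of *Vgf* lies wholly above it, and the other bars reach into it.

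Among the granins, *Vgf* had the widest gap between the genotypes. *Vgf* encodes a neuronal precursor whose peptides have been linked to energy balance. It stood at 256 CPM in WT and 279 CPM in *Gpr75-/-* mice on chow, and at 235 CPM in WT and 279 CPM in *Gpr75-/-* mice on the HFD. Its level was higher in *Gpr75-/-* mice on each diet. The log2 difference was 0.13 on chow (0.06 to 0.19 by rounding) and 0.25 on the HFD (0.19 to 0.31), which is 1.19-fold (1.14 to 1.24) on the HFD. A difference at least as high was found for 6.43% of the 4461 genes with a mean of at least 1000 on chow and for 0.341% of the 4688 such genes on the HFD. The level of the *Gpr75-/-* group was the same on both diets, and it was the WT level that was lower on the HFD than on chow, with the caution that the 2 diets were normalized in separate tables.

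*Scg2*, the precursor of secretoneurin, was at 1142 CPM in both genotypes on chow. On the HFD it was at 1142 CPM in WT and 1273 CPM in *Gpr75-/-* mice. The *Gpr75-/-* group on the HFD was the high one, and the other 3 groups shared a value. The log2 difference was 0.00 on chow (-0.08 to 0.08 by rounding) and 0.16 on the HFD (0.08 to 0.23). On the HFD, 1.62% of genes with a mean of at least 1000 had a difference at least as high.

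The chromogranins and secretogranin III lay close together in the 4 groups. *Chga*, which encodes chromogranin A, was at 207 CPM in WT and 199 CPM in *Gpr75-/-* mice on chow, and at 199 CPM and 207 CPM on the HFD. *Chgb*, which encodes chromogranin B, was at 319 CPM in WT and 305 CPM in *Gpr75-/-* mice on chow, and at 305 CPM and 319 CPM on the HFD. For both genes the chow WT level equalled the HFD *Gpr75-/-* level, with the caution that the 2 diets were normalized separately. The other pair of groups shared the lower value, 1 rounding step away. The log2 difference of *Chga* was -0.06 on chow (-0.12 to 0.00 by rounding) and 0.06 on the HFD (0.00 to 0.12). That of *Chgb* was -0.06 on chow (-0.13 to 0.00) and 0.06 on the HFD (0.00 to 0.13). Rounding thus allows a difference close to 0 for both genes on each diet. *Scg3*, whose product binds chromogranin A at the granule membrane, was at 207 CPM in WT and 191 CPM in *Gpr75-/-* mice on chow, and at 199 CPM and 207 CPM on the HFD. Its log2 difference was -0.12 on chow (-0.18 to -0.06 by rounding) and 0.06 on the HFD (0.00 to 0.12). On chow, 8.81% of genes with a mean of at least 1000 were as low or lower.

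The convertases differed from each other. *Pcsk1*, which encodes PC1/3, was at 76.6 CPM in WT and 85.2 CPM in *Gpr75-/-* mice on chow, and at 88.3 CPM in WT and 91.5 CPM in *Gpr75-/-* mice on the HFD. WT mice on chow had the lowest of the 4 levels. The log2 difference was 0.15 on chow (0.10 to 0.20 by rounding) and 0.05 on the HFD (0.00 to 0.10). On chow, 3.90% of genes with a mean of at least 1000 were at least as high.

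*Pcsk2*, which encodes PC2, was at 207 CPM in WT and 216 CPM in *Gpr75-/-* mice on chow, and at 207 CPM and 191 CPM on the HFD. The low group was *Gpr75-/-* on the HFD. The log2 difference was 0.06 on chow (0.00 to 0.12 by rounding) and -0.12 on the HFD (-0.18 to -0.06). On the HFD, 6.80% of genes with a mean of at least 1000 were as low or lower. The *Pcsk2* gene overlaps the long noncoding RNA *Pcsk2os1* over 1682 bases, and reads of the 2 genes cannot be told apart there if strand was not used. *Pcsk2os1* had a mean normalized count of 111 on chow and 109 on the HFD, against 3882 and 3901 for *Pcsk2*.

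The partner proteins bind the convertases. *Pcsk1n* encodes proSAAS, an inhibitor of PC1/3, and was at 334 CPM in both genotypes on chow and at 305 CPM in WT and 334 CPM in *Gpr75-/-* mice on the HFD. The low group was WT on the HFD, as for *Vgf*. The log2 difference was 0.00 on chow (-0.07 to 0.07 by rounding) and 0.13 on the HFD (0.06 to 0.19), and 4.05% of genes with a mean of at least 1000 were at least as high on the HFD. *Scg5* encodes 7B2, the chaperone of PC2, and was at 216 CPM in both genotypes on chow and at 225 CPM in WT and 235 CPM in *Gpr75-/-* mice on the HFD. Its log2 difference was 0.00 on chow (-0.06 to 0.06) and 0.06 on the HFD (0.00 to 0.12).

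*Cpe* was at 2666 CPM in both genotypes on chow and in *Gpr75-/-* mice on the HFD. WT mice on the HFD were 1 rounding step higher, at 2830.1 CPM. The log2 difference was 0.00 on chow (-0.09 to 0.09 by rounding) and -0.09 on the HFD (-0.17 to 0.00). The genes nearest to *Cpe* in mean normalized count, not scaled by length, were *Gm10925*, *mt-Nd1* and *mt-Nd4* on chow and *Gm10925*, *Meg3* and *Scd2* on the HFD. Their log2 differences were 0.00, -0.08 and -0.17 on chow and -0.09, 0.00 and 0.00 on the HFD.

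The genotype difference was then set side by side for the 2 diets, whose groups share no mice. The HFD difference was the higher one for 7 of the 10 genes, and the median of HFD minus chow was 0.12 in log2. Over the 12331 genes with a mean of at least 100 on both diets, 50.7% had the higher difference on the HFD and the median was 0.00. The interval from rounding lay above 0 for 2 of the 10, *Scg2* and *Scg3*, and below 0 for 1, *Pcsk2*, beside 25.4% above and 19.9% below among all such genes. These counts are close to the background, and for *Scg2* the lower end of the interval was 0.00 when rounded. For *Scg3*, HFD minus chow was 0.18 (0.06 to 0.30 by rounding). For *Pcsk2* it was -0.18 (-0.30 to -0.06), and for *Vgf* 0.12 (0.00 to 0.25). Whether the genotype difference depends on the diet was not tested.

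The lists of related genes and of cell markers that follow were counted over genes with a mean of at least 100 and are read against the same background. By 1 rounding step or more, that background was 42.6% higher and 39.3% lower on chow and 45% higher and 33.6% lower on the HFD. Other enzymes of precursor processing were not one-sided. Of 14 such genes with a mean of at least 100, 8 were higher and 5 lower in *Gpr75-/-* mice on chow, with a median log2 difference of 0.04. On the HFD, 7 were higher and 3 lower, with a median of 0.02. *Cpd*, which encodes carboxypeptidase D, a relative of carboxypeptidase E in the trans-Golgi network, was the gene of the list that passed 1.2-fold on chow. It was at 82.2 CPM in WT and 64.6 CPM in *Gpr75-/-* mice on chow, and at 56.5 CPM and 48.1 CPM on the HFD. *Pcsk4*, a convertase known from germ cells, was at 6.77 CPM in WT and 5.98 CPM in *Gpr75-/-* mice on chow, and at 5.15 CPM and 6.53 CPM on the HFD, where it passed 1.2-fold. *Pam*, which encodes the enzyme that amidates peptides and was chosen after its values were seen, was at 114 CPM in WT and 110.0 CPM in *Gpr75-/-* mice on chow, and at 110.0 CPM and 123 CPM on the HFD.

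Genes of dense-core vesicles and their release were centered on no difference. Of 27 with a mean of at least 100, 9 were higher and 10 lower in *Gpr75-/-* mice on chow, and 9 were higher and 11 lower on the HFD. The median log2 difference was 0.00 on each diet, and 0 of the 27 passed 1.2-fold on either diet, beside 4.37% of all genes on chow and 2.83% on the HFD in either direction. A count of 0 is close to these shares and is not a result about the vesicle genes.

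The peptide precursors, which are the substrates of these enzymes, were counted in the same way. On chow, 9 of 21 precursors with a mean of at least 100 were higher in *Gpr75-/-* mice and 11 were lower, with a median log2 difference of -0.04, and 1 was higher and 2 were lower by 1.2-fold or more, beside 2.13% and 2.23% of all genes. On the HFD, 20 of the 21 were higher and 1 was lower, *Cck*, with a median of 0.20. By 1.2-fold or more, 6 were higher and 0 lower, beside 1.39% and 1.44% of all genes, and whether the precursors differ between the diets was not tested. *Cck* was named after its values were seen. *Pomc*, the melanocortin precursor, was at 17.1 CPM in WT and 14.2 CPM in *Gpr75-/-* mice on chow, and at 20.4 CPM and 28.2 CPM on the HFD. *Npy*, which encodes neuropeptide Y, was at 23.3 CPM in WT and 22.1 CPM in *Gpr75-/-* mice on chow, and at 16.3 CPM and 22.7 CPM on the HFD. For *Pomc* the high group was *Gpr75-/-* on the HFD, and for *Npy* WT on the HFD was the low group, with the other 3 groups close together.

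*Pmch* was at 245 CPM in WT and 256 CPM in *Gpr75-/-* mice on chow, and at 225 CPM and 292 CPM on the HFD. *Vip*, which encodes vasoactive intestinal peptide, was at 9.37 CPM in WT and 11.6 CPM in *Gpr75-/-* mice on chow, and at 10.4 CPM and 13.2 CPM on the HFD. *Penk*, the enkephalin precursor, was at 150 CPM in WT and 106.0 CPM in *Gpr75-/-* mice on chow, and at 114 CPM and 123 CPM on the HFD. It was the low gene of the list on chow, with a log2 difference of -0.50 (-0.55 to -0.44 by rounding). Set beside these substrates, the processing genes had the smaller differences on the HFD, with a median of 0.06 against 0.20, and this gap was not tested.

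Markers of other cells are given because granins are shared by neurons and endocrine cells. Of 15 neuron markers, 1 was higher and 6 lower in *Gpr75-/-* mice on chow, and 3 were higher and 8 lower on the HFD, with medians of 0.00 and -0.05 in log2 and a summed level of 8396 CPM in WT and 8126 CPM in *Gpr75-/-* mice on chow and 8062 CPM and 7960.1 CPM on the HFD. The most abundant, *Snap25*, which is also in the vesicle list, was at 2369 CPM in WT and 2234 CPM in *Gpr75-/-* mice on chow and at 2108 CPM in both on the HFD. *Nefm*, a neurofilament gene, was at 199 CPM in WT and 176 CPM in *Gpr75-/-* mice on chow, and at 169 CPM and 156 CPM on the HFD. In bulk tissue, fewer cells of a type and less RNA per cell cannot be told apart.

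Of the 11 hypothalamic markers with a mean of at least 100, 8 were higher in *Gpr75-/-* mice and 3 lower on chow, and 10 were higher and 0 lower on the HFD. The shares over all genes were 42.6% and 39.3% on chow and 45% and 33.6% on the HFD. By 1.2-fold or more, 0 were apart on chow, and on the HFD 6 were higher and 0 lower, beside 1.39% and 1.44% of all genes. Their median log2 difference was 0.06 on chow and 0.28 on the HFD. The summed level of the list was 703 CPM in WT and 742 CPM in *Gpr75-/-* mice on chow, and 704 CPM and 849 CPM on the HFD. This list shares 7 of its 13 genes with the precursors. *Agrp*, a feeding peptide gene with a mean normalized count of 56.0 on chow and 49.9 on the HFD, was at 2.69 CPM in WT and 3.37 CPM in *Gpr75-/-* mice on chow, and at 2.0 CPM and 3.0 CPM on the HFD. Their part in the differences of the processing genes was not tested.

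All 12 oligodendrocyte markers were lower in *Gpr75-/-* mice on each diet, beside 39.3% of all genes on chow and 33.6% on the HFD. By 1.2-fold or more, 4 were lower on chow and 7 on the HFD, beside 2.23% and 1.44% of all genes. The median log2 difference of the markers was -0.17 on chow and -0.27 on the HFD. Their summed level was 11870 CPM in WT and 10131 CPM in *Gpr75-/-* mice on chow, and 12509 CPM and 10702 CPM on the HFD. *Aspa*, which encodes aspartoacylase, was at 46.6 CPM in WT and 31.5 CPM in *Gpr75-/-* mice on chow, and at 43.8 CPM and 36.5 CPM on the HFD. The part of these lower myelin markers in the levels of the processing genes was not tested.

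Of 9 astrocyte markers, 3 were higher and 2 lower in *Gpr75-/-* mice on chow, and 4 were higher and 1 lower on the HFD, with a median log2 difference of 0.00 on each diet. Their summed level was 3493 CPM in WT and 3487 CPM in *Gpr75-/-* mice on chow, and 3553 CPM and 3688 CPM on the HFD. *Slc1a3*, a glutamate transporter gene, was at 834 CPM in WT and 878 CPM in *Gpr75-/-* mice on chow, and at 925 CPM in both on the HFD. *Agt*, which encodes angiotensinogen, was at 225 CPM in WT and 216 CPM in *Gpr75-/-* mice on chow, and at 245 CPM and 279 CPM on the HFD.

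Choroid plexus markers were uneven. On chow, 6 of 6 with a mean of at least 100 had the higher level in the *Gpr75-/-* group, 5 of them by 1.2-fold or more, beside 2.13% of all genes. The median log2 difference was 0.50, with a summed level of 390 CPM in WT and 578 CPM in *Gpr75-/-* mice over the 10 genes measured. On the HFD, 3 of 4 were higher and 1 lower, 0 of them by 1.2-fold or more, with a median of 0.14. The summed level there was 410 CPM in WT and 373 CPM in *Gpr75-/-* mice over the 6 genes measured, so the sums of the 2 diets do not cover the same genes. *Enpp2*, the most abundant, was at 305 CPM in WT and 461 CPM in *Gpr75-/-* mice on chow, and at 334 CPM and 292 CPM on the HFD. *Ttr*, which encodes transthyretin, was at 5.59 CPM in WT and 12.9 CPM in *Gpr75-/-* mice on chow, and at 3.60 CPM and 1.35 CPM on the HFD. The mean of *Ttr* over the 6 chow mice was 159 CPM, far above both group levels, so the group levels appear to weigh down single high mice. For the 10 processing genes the average of the group levels was between 0.976 and 1.0 times the mean over the mice on each diet. The part of choroid plexus tissue in their levels was not tested.

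The 10 genes lie on 8 chromosomes. In the coordinates of the deposited tables (GRCm39), *Vgf* spans chr5:137055246-137062205, *Scg2* chr1:79412386-79417837 and *Cpe* chr8:65045576-65146088. The convertase genes are *Pcsk1* at chr13:75237945-75282980 and *Pcsk2* at chr2:143388076-143658205. *Chgb*, *Scg5* and *Pcsk2* share chromosome 2.

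Promoter sequence was read for 8 of the 10 genes from RefSeq (GRCm38.p6), over the 250 bases before the start of each gene. No promoter was available for *Vgf* and *Cpe*, so neither was searched. The cAMP response element, TGACGTCA, which reads the same on both strands, occurred in 3 of the 8, *Chgb*, *Pcsk1* and *Scg2*. It occurred in 1.55% of all 32851 promoters over the same length. Its shorter form, TGACG on either strand, which every full element contains, occurred in 7 of the 8, all but *Pcsk1n*, and in 17.8% of all promoters. The TATA letters TATAAA, on either strand, occurred in 0 of the 8 and in 12.4% of all promoters. Windows of 40 bases around the full element are shown because it is a sequence that these 3 genes of the set share, with the element in capitals. The element begins 72 bases before the start of *Chgb*, 78 bases before that of *Pcsk1* and 68 bases before that of *Scg2*. The windows are chr2:132781554-132781593 on the plus strand for *Chgb*, chr13:75089763-75089802 on the plus strand for *Pcsk1* and chr1:79440071-79440110 on the minus strand for *Scg2*, in GRCm38.p6. Each is written 5′ to 3′ on the strand of its gene and lies upstream of the transcribed part.
Chgb: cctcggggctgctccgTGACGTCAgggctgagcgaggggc
Pcsk1: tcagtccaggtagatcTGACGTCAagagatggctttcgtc
Scg2: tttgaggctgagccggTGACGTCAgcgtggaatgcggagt
A match describes these letters and is not evidence of binding. The log2 differences on chow were -0.06 for *Chgb*, 0.15 for *Pcsk1* and 0.00 for *Scg2*. On the HFD they were 0.06, 0.05 and 0.16. Whether the element has a part in these differences was not tested.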

How the data were processed

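RNA-Seq of hypothalamus from 12 mice was used as 1 table per diet, each with 6 mice. Per the labels, the authors' processing named STAR, featureCounts, StringTie and DESeq2 with the build GRCm39 and no versions. The signal that the authors deposited per gene is the mean over 6 mice of counts divided by size factors. The deposited log2 values of each group are rounded to 2 decimals, on a scale the tables do not name. From the values it was taken as log2(1 + log2 CPM): undone, the columns sum to 993776 and 992419 CPM on chow and 993875 and 994240 CPM on the HFD, and for genes with a mean of at least 100 their average is a median of 0.993 times the scaled mean on each diet. They may be averages on a log scale or medians over the mice. The tables also hold the authors' own comparisons (fold changes, standard errors, test statistics and p-values), which were not used.

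Differences of group levels were computed with Python 3.11.15, numpy 2.4.6 and pandas 2.3.3, and drawn with matplotlib 3.10.9. Intervals move each level by 0.005 either way. The steps were tested on simulated data. The planned edgeR test on counts could not be run, as the tables hold no counts of single mice, so group differences were described without a test. Depth of single mice was not used here. Counting alone gives a log2 difference of a member an SE of 0.01 to 0.03. Transcript lengths came from GENCODE by Ensembl identifier (99.7% of protein-coding genes). Alternatives were centering on the median of all genes, a pseudocount of 1, folds of 1.1 and 1.5, other filters on the mean, protein-coding genes alone, and levels per kilobase.

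Named genes were the 10 members, up to 5 genes per pathway list past 1.2-fold with a mean of at least 100, the most abundant gene and that with the widest difference in each cell type list, and the 3 genes nearest to the most abundant member in mean count. Members and lists were chosen with earlier results of these data known. Values of 2 genes that this rule names are left out.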

Additional observations from a re-analysis of the deposited data

How the results depend on the processing

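No paired analysis was possible because the deposited columns hold groups, not mice, although replicate numbers are shared across the groups. For the same reason the fits with DESeq2, with a replicate block and without each replicate in turn were not run. Centering subtracted a median of 0.00 on each diet and so repeated the main values, and a fold of 1.5 could give only 0 members where 1.2 gave 0. A pseudocount of 1 is small beside member levels of at least 76.6 CPM and left 20 of 20 differences inside their rounding interval. None of these alternatives says anything of stability. Per kilobase, *Cpe* supplied 50.3% of the set on chow and 50.8% on the HFD, against 47.4% and 48.0% by count. At 1.1-fold the counts were 1 gene on chow and 2 on the HFD against 0 at 1.2-fold on each diet, since a lower fold admits smaller differences. Rounding does not settle the counts at 1.1-fold on either diet, nor that at 1.2-fold on the HFD. The share of all genes past 1.2-fold was 4.37% on chow and 2.83% on the HFD with a mean of at least 100. It was 11.5% and 8.74% with no filter, and 1.57% and 0.981% with a mean of at least 1000, and 3.59% and 2.58% among protein-coding genes. Rounding limits each difference of a member to steps of 0.05 to 0.09 in log2. The group levels used here do not give the variation between the 3 mice of a group, and the authors' standard errors were not used. A level from 3 mice can rest on 1 of them, and group levels that weigh down high mice would not show it.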
